A study of Mus musculus with 5 samples.

Results

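The zinc finger genes named Zfp followed by digits alone were examined in mouse embryonic stem cells after siRNA transfection. Members were chosen by name only, though with earlier results of these data known, and numbered 189 of the 12930 genes in the deposited table. Of these, 181 had a value in all 4 siRNA libraries, as did 12088 genes of the whole table. Of the 189 members, 185 are annotated as protein coding and 4 as pseudogenes in GENCODE M21 on GRCm38. That annotation lists 374 genes with such names, so 185 further Zfp genes, among them Zfp42, Zfp143, Zfp281 and Zfp36, did not match any name in the table and were not analysed here.

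The series holds 5 RNA-seq libraries of OG2 cells: 2 labelled siDHX30, 2 labelled siTfam and 1 negative control labelled NC. Each siRNA group is called a knockdown here by its label, whatever the level of its target. Dhx30 encodes an RNA helicase of mitochondrial RNA granules, and Tfam encodes the factor that packages and transcribes mitochondrial DNA. All cells, of the strain labelled (CBA/CaJxC57BL/6J) with 129Sv/Jae, were first kept for 24 h on gelatin in N2B27 medium with LIF, PD0325901 and CHIR99021. They were then transfected with siRNA at 50 nM and moved at the same time to medium with bFGF, Activin A and knockout serum replacement for 36 h. The labels do not say that replicates were separate cultures, so each p-value here reflects library-to-library spread that may be technical in origin.

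Each deposited value is a log2 ratio of 1 siRNA library, read here as siRNA over NC, so that 0 is the level in NC and 1 is a doubling. The column headings state neither the denominator nor the direction. That NC, as the negative control, is the denominator of every column is an assumption, and each value below depends on it. The direction was inferred from the gaps in the table. Genes that lack a value in some library have 1574 values in others, and each of these was negative before the sign was turned. No level or read depth can be had from ratios, and genes with few reads could not be told from abundant ones. If the single NC library stands under every ratio, a value peculiar to NC would shift all 4 ratios of a gene alike, and the 2 cases cannot be told apart. Fewer cells of a type and less RNA per cell cannot be told apart either. In siDhx30 libraries Dhx30 itself stood at -0.40 and -0.20, against 0.01 and 0.04 in siTfam libraries. Tfam stood at -0.28 and -0.02 in siTfam libraries, and at 0.12 and -0.01 in siDhx30 libraries. Neither gene passed the limma test in its own knockdown (adjusted p of 0.998 for Dhx30 and 0.987 for Tfam). Of 12 embryonic stem cell markers listed, Dppa4, Esrrb and Sall4 had values, which as ratios do not show the level of the marker. Of 12 fibroblast markers, 5 had values, with medians of 0.25 and -0.07 in siDhx30 libraries and -0.21 and 0.04 in siTfam libraries. These markers went both ways, with 2 above NC on average and 3 below with each siRNA. Their mean ratios ran from -0.75 (Col1a2) to 0.69 (Thy1) with siDhx30 and from -0.52 (Dcn) to 0.53 (Vim) with siTfam.

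Most Zfp proteins are built from C2H2 fingers, short repeats that fold around a zinc ion and read DNA bases. A large share also carries a KRAB box, which binds the corepressor Trim28. Trim28 brings in the histone methyltransferase Setdb1 and heterochromatin proteins, and in embryonic stem cells this machinery silences endogenous retroviruses and helps keep imprints. Other Zfp proteins without a KRAB box bind RNA, ribosomes or ubiquitin targets, or act as ordinary transcription factors. Many KRAB genes arose by tandem duplication and lie in clusters, so the genes of a cluster share ancestry and are not independent observations.

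As a family the Zfp genes stayed centred on the NC level in both knockdowns. Their median ratio was 0.04 and -0.05 in the siDhx30 libraries and 0.05 and -0.06 in the siTfam libraries, beside -0.01 in each of the 4 libraries over all genes tested. Members above NC numbered 97 and 83 of 181 in the siDhx30 libraries and 102 and 77 in the siTfam libraries. The first library of each knockdown thus had more members above NC and the second more below. With siDhx30, both libraries lay above NC for 60 members (background 32.1% of all genes), both below for 61 (background 34.9%) and on opposite sides for 60 (background 33%). With siTfam, both lay above for 49 members (background 32%), both below for 51 (background 34.4%) and on opposite sides for 81, or 44.8% (background 33.6%). The siTfam libraries thus split on more members than the background share. The interquartile range of the members was 0.43 for the siDhx30 mean ratio, beside 0.39 over all genes, and 0.38 for the siTfam mean ratio, beside 0.42 over all genes.

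No member passed an adjusted p of 0.05 in any of the 3 comparisons, tested with limma across all 12088 complete genes. Nor did any other gene, so the background was 0% called in each. At an unadjusted p under 0.05, limma picked 7 members in siDhx30 against NC (3.87% of 181, beside 5.04% of all genes), 4 of them higher and 3 lower. In siTfam against NC it picked 9 members (4.97%, beside 6.11% of all genes), 6 higher and 3 lower. In siDhx30 against siTfam it picked 3 members, all lower in siDhx30 (1.66%, beside 2.79% of all genes). Each of these shares lay below its background, but not under every setting. The siTfam count was 17 with siTfam replicate 1 left out, or 9.39% of members, above the 8.10% of all genes in that fit. It was 4 with siTfam replicate 2 left out (2.21%, beside 5.44% of all genes) and 5 with either siDhx30 library left out (2.76%, beside 5.80% of all genes). The count between the siRNAs was 13 without siTfam replicate 1 (7.18%, beside 7.62% of all genes) and 5 without siDhx30 replicate 1 (2.76%, beside 5.50% of all genes).

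**Figure D1:**
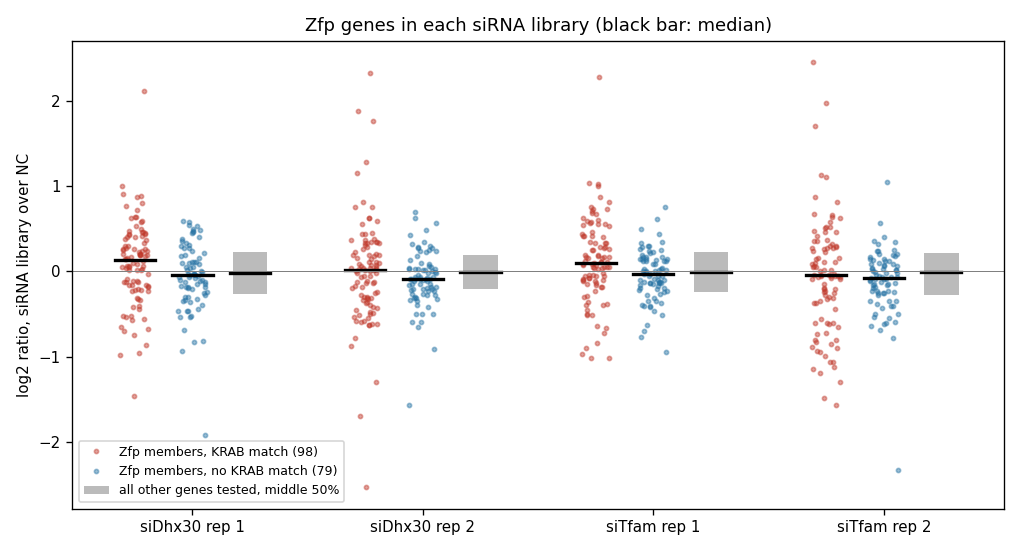
Log2 ratio over NC (vertical axis) of each Zfp gene in the 4 siRNA libraries, with a KRAB match (red, 98 genes) and without one (blue, 79 genes), black bars at the medians, and the middle 50% of all other genes tested in grey. Medians sit near 0 in every library, and the points that lie farthest from NC are mostly red.

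A few members stood well away from NC in both libraries of a knockdown, in each count a smaller share than of all genes. At least 0.5 above NC in both libraries were 7 members with siDhx30 (3.87%, background 4.77% of all genes) and 8 with siTfam (4.42%, background 5.34%). At least 0.5 below NC in both were 5 members with siDhx30 (2.76%, background 5.26%) and 6 with siTfam (3.31%, background 5.74%). In all 4 libraries, 3 members were at least 0.5 above NC, namely Zfp583, Zfp113 and Zfp759 (1.66%, background 2.65%). Those at least 0.5 below in all 4 were 2, Zfp317 and Zfp94 (1.10%, background 2.79%).

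The highest member was Zfp583, a gene on the minus strand of chromosome 7 (chr7:6315660-6331285) whose protein has 12 fingers and a diverged KRAB box. It had log2 ratios of 2.11 and 2.33 in siDhx30 libraries and 2.28 and 2.46 in siTfam libraries. All 4 values were more than 2 above NC and lay close together, with the ranges of both knockdowns overlapping. The mean ratio with siDhx30 was 2.22 (SE 0.21, 95% interval 1.63 to 2.81), which is 466% of the NC level, at an unadjusted p of 0.000472 and an adjusted p of 0.478 by limma. With siTfam it was 2.37 (SE 0.21, 95% interval 1.78 to 2.96), or 517% of the NC level, at an adjusted p of 0.378 by limma. The difference between siDhx30 and siTfam was -0.15 (95% interval -0.63 to 0.33).

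Zfp759, a gene of 19 fingers on chromosome 13, was above NC by a like amount in each library. Its log2 ratios were 0.80 and 0.75 in siDhx30 libraries and 0.60 and 0.67 in siTfam libraries. The siDhx30 values were both above the siTfam values, by less than the distance of either from NC. Its mean ratio was 0.78 with siDhx30 (SE 0.18, adjusted p of 0.711 by limma) and 0.63 with siTfam (SE 0.18, adjusted p of 0.706). Zfp113, with 8 fingers and a KRAB box, spread more widely, at 0.88 and 1.29 in siDhx30 libraries and 0.87 and 1.70 in siTfam libraries. Its second library was the higher one in both knockdowns.

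On the other side, Zfp317, a KRAB gene of 13 fingers on chromosome 9, had the lowest mean siDhx30 ratio of the 181 complete members. Its log2 ratios were -1.45 and -2.53 in siDhx30 libraries and -0.97 and -1.57 in siTfam libraries. All 4 libraries were below NC, and the ranges of the knockdowns overlapped. The mean was -1.99 with siDhx30 (SE 0.57, adjusted p of 0.853 by limma), or 25.1% of the NC level, and -1.27 with siTfam (SE 0.57, adjusted p of 0.881), or 41.5% of it. Zfp94 was less far from NC and more even, at -0.70 and -0.78 in siDhx30 libraries and -1.01 and -1.15 in siTfam libraries. Its siTfam values were both below its siDhx30 values. The siTfam mean of Zfp94 was -1.08 (SE 0.19, 95% interval -1.60 to -0.56, adjusted p of 0.535 by limma).

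Zfp27, with 21 fingers, had ratios of -0.98 and -1.70 in siDhx30 libraries and -0.45 and -1.06 in siTfam libraries, all below NC. Other members differed more between the libraries of 1 knockdown than between knockdowns. Zfp408, whose human counterpart is mutated in inherited retinal disease, was at -0.46 and -1.57 in siDhx30 libraries and -0.39 and -2.32 in siTfam libraries. Zfp235 showed the same arrangement, at -0.03 and -1.29 in siDhx30 libraries and -0.15 and -1.06 in siTfam libraries. In both genes the second library of each knockdown was the low one. Zfp362, singled out after its values were seen, had the reverse, with -1.92 and 0.05 in siDhx30 libraries and -0.95 and 0.09 in siTfam libraries. Zfp946, also singled out afterwards, reached 1.87 in the second siDhx30 library alone, with -0.23 in the first and -0.18 and 0.36 in siTfam libraries.

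**Figure D2:**
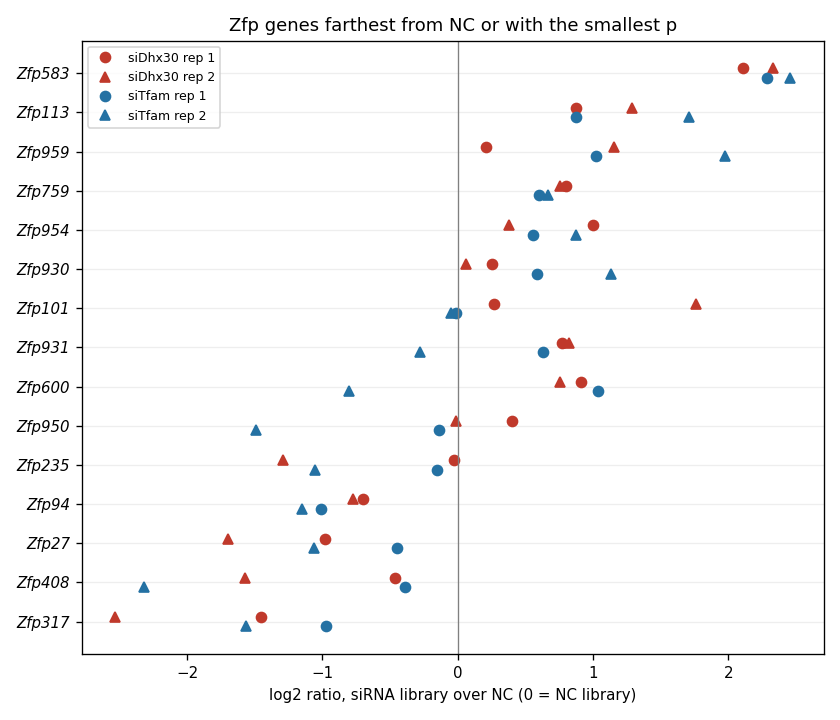
Log2 ratio over NC (horizontal axis, NC at 0) of the Zfp genes farthest from NC or with the smallest p, in siDhx30 (red) and siTfam (blue) libraries, replicate 1 as circles and replicate 2 as triangles. Zfp583 stands above 2 in all 4 libraries and Zfp317 below -0.9 in all 4, while Zfp408 and Zfp235 split by replicate number.

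The promoters of some of these genes share a short word, shown because it was the 8-letter word most over-represented in the family. RefSeq promoters on GRCm38.p6, which run from 250 bases before to 50 bases after the start, were matched for 152 members. Among 20170 words counted on both strands, AATGTAGT, or ACTACATT on the other strand, was present in 17 of them (11.2%), beside 130 of 8270 promoters of all genes (1.57%). The overlapping word GAAATGTA was present in 16 members (10.5%, beside 1.67% of all promoters), so the counts are not separate. The word was chosen for its count, and duplicated genes can share it by descent. Zfp317, Zfp94, Zfp759 and Zfp954 hold it, at chr9:19621851-19621890, chr7:24316797-24316836, chr13:67128164-67128203 and chr7:7121548-7121587. Each 40-base window is printed in the direction that reads ACTACATT, which is the plus strand for Zfp317 and Zfp94 and the minus strand for Zfp759 and Zfp954, with the word in capitals.
Zfp317: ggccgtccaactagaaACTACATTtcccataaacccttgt
Zfp94: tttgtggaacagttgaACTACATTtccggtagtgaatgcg
Zfp759: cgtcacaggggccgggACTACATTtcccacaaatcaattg
Zfp954: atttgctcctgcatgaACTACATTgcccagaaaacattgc

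In the Zfp317 promoter (chr9:19621841-19622140, plus strand) the word, in capitals, occurs at 2 places with similar bases around it.
Zfp317 promoter: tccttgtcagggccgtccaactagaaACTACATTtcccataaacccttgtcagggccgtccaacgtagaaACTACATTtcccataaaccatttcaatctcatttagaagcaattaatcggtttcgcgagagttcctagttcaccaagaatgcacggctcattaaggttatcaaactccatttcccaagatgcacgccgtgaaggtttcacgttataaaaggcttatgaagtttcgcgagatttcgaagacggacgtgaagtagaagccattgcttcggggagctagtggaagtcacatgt

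The genes that hold the word did not lie on 1 side of NC. Zfp317 and Zfp94 lay below NC in all 4 libraries, while Zfp759 and Zfp954 lay above it in all 4. The 17 members with the word had median ratios of 0.10 and -0.42 in siDhx30 libraries and 0.05 and -0.14 in siTfam libraries. The 128 complete members without it had 0.02 and -0.05 in siDhx30 libraries and 0.04 and -0.06 in siTfam libraries. With and without the word, members spanned both sides of NC in every library. Zfp583 does not hold the word in its RefSeq window. The RefSeq start of Zfp583 lies 851 bases from the GENCODE gene start and that of Zfp759 lies 6568 bases away, so these windows may not cover the start used in these cells.

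Among the Zfp members, those with a KRAB box were spread more widely around NC than those without. This is given here as counts, medians and spreads with no test of the difference. Beside all genes, the width of the KRAB members depended on the measure, as given below. A KRAB box was found by a profile in 104 of 185 members with a coding sequence (78 by a stricter fixed pattern), and 98 of these were complete. KRAB members had a median of 11 fingers, beside 6 in the 79 complete members without a match. Median ratios with a KRAB match were 0.13 and 0.01 in siDhx30 libraries and 0.10 and -0.05 in siTfam libraries. Without a match they were -0.04 and -0.09 in siDhx30 libraries and -0.03 and -0.08 in siTfam libraries. KRAB members were thus higher than the others in each library, by less than the interquartile range of either group.

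The interquartile range of the siTfam mean ratio was 0.54 with a KRAB match and 0.25 without, beside 0.42 over all genes. That of the siDhx30 mean ratio was 0.47 with a match and 0.35 without, beside 0.39 over all genes. In the 32 genes outside the family with a KRAB match it was 0.38 with siTfam and 0.34 with siDhx30. The standard deviation of KRAB members was 0.52 with siTfam and 0.50 with siDhx30, close to the 0.53 and 0.50 of all genes. Without a match it was 0.28 with siTfam and 0.29 with siDhx30. All 7 members at least 0.5 above NC in both siDhx30 libraries, and all 8 in both siTfam libraries, carried a KRAB match. They made up 7.14% and 8.16% of the 98 KRAB members, beside 4.77% and 5.34% of all genes. Of the 79 members without a match, 0 were at least 0.5 above NC in both libraries of either knockdown. By the stricter pattern, 2 of the 7 and 2 of the 8 had no match, Zfp583 and Zfp759 in each case. At least 0.5 below NC in both libraries were 4 KRAB members with each siRNA, or 4.08% of 98. The share of all genes was 5.26% with siDhx30 and 5.74% with siTfam. Members without a match that lay so far below were 1 with siDhx30 and 2 with siTfam. By the stricter pattern these counts were 2 with a match and 3 without for siDhx30. For siTfam they were 3 with a match and 3 without. The members with an unadjusted limma p under 0.05, being 7, 9 and 3 in the 3 comparisons, all carried a KRAB match. They made up 7.14%, 9.18% and 3.06% of the 98 KRAB members, beside 5.04%, 6.11% and 2.79% of all genes. Under the stricter pattern, 4 of the 7 with siDhx30, 3 of the 9 with siTfam and 1 of the 3 between the siRNAs had no match. The KRAB boxes of Zfp583, Zfp759, Zfp94, Zfp27 and Zfp93 were found only by the profile, which was built after the values had been seen.

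Base composition differed along the same split. The longest transcript of KRAB members had a median GC content of 42.9%, beside 49.7% in members without a match and 49.4% over all genes. Across the 181 complete members, the Spearman correlation of ratio with GC content was -0.40 and -0.13 in siDhx30 libraries and -0.35 and -0.00 in siTfam libraries. Across 9256 protein-coding genes it was -0.33 and -0.08 in siDhx30 libraries and -0.24 and -0.07 in siTfam libraries. These are correlations across genes that share a library, given as a description. The 1359 protein-coding genes outside the family with a GC content at or under the KRAB median had median ratios of 0.10 and 0.03 in siDhx30 libraries and 0.05 and 0.03 in siTfam libraries. With trends on transcript length and GC content removed in each library, KRAB members had medians of 0.09 and -0.00 in siDhx30 libraries and 0.08 and -0.03 in siTfam libraries. Members without a match then had -0.03 and -0.09 in siDhx30 libraries and -0.01 and 0.03 in siTfam libraries, so in the second siTfam library they were the higher group. The 32 other genes with a KRAB match had medians of 0.24 and 0.03 in siDhx30 libraries and 0.16 and 0.05 in siTfam libraries. The part of base composition in the KRAB values was not tested.

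**Figure D3:**
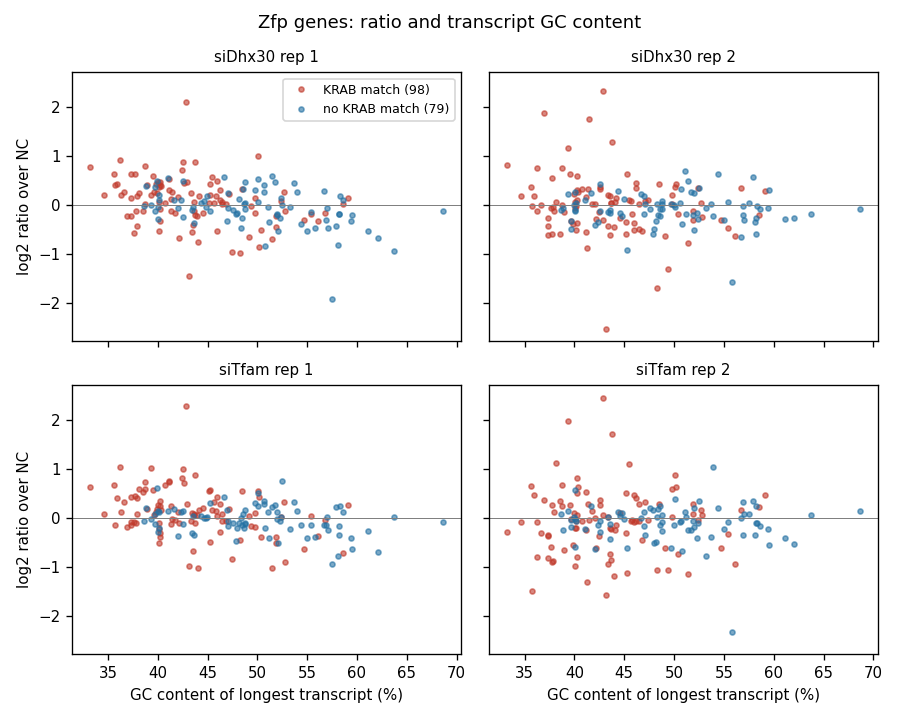
Log2 ratio over NC (vertical axes) of the complete Zfp genes by GC content of the longest transcript in percent (horizontal axes), 1 panel per library, with a KRAB match in red and without one in blue. The downward slope is visible in the first library of each knockdown (Spearman -0.40 and -0.35) and slight or absent in the second.

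Between the knockdowns, Zfp genes were set apart no more often than all genes. Both siDhx30 libraries lay above both siTfam libraries for 25 of 181 members (13.8%, background 14.7% of all genes), close to the background. They lay below both for 17 members (9.39%, background 14.3%). The differences ranged from -0.82 to 1.04, with a median of 0.01. The smallest p belonged to Zfp975, a KRAB gene of 14 fingers, with ratios of -0.11 and -0.58 in siDhx30 libraries and 0.53 and 0.35 in siTfam libraries. The siDhx30 libraries were below NC and the siTfam libraries above it. The difference was -0.79 (SE 0.23, 95% interval -1.43 to -0.15), at an unadjusted p of 0.0266 and an adjusted p of 0.999 by limma.

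Zfp93 was arranged alike, with ratios of -0.52 and -0.37 in siDhx30 libraries and 0.04 and 0.46 in siTfam libraries. Zfp930 was above NC throughout, at 0.25 and 0.06 in siDhx30 libraries and 0.59 and 1.13 in siTfam libraries. The differences were -0.70 for each (SE 0.21 for Zfp93 and 0.25 for Zfp930, both with an adjusted p of 0.999 by limma). In the other direction, Zfp296, a Klf4 partner studied in reprogramming to pluripotency, had -0.21 and 0.30 in siDhx30 libraries and -0.63 and -0.54 in siTfam libraries. Its siTfam libraries were both below NC, and the siDhx30 libraries lay on either side of it. The difference was 0.63 (SE 0.23, 95% interval -0.02 to 1.27, adjusted p of 0.999 by limma). The widest difference, 1.04 for Zfp101 (SE 0.55), rested on 1 library, since Zfp101 had 0.27 and 1.76 in siDhx30 libraries and -0.02 and -0.05 in siTfam libraries. That of Zfp950, 1.01 (SE 0.52), likewise rested on 1 library, with 0.40 and -0.01 in siDhx30 libraries and -0.14 and -1.49 in siTfam libraries.

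**Figure D4:**
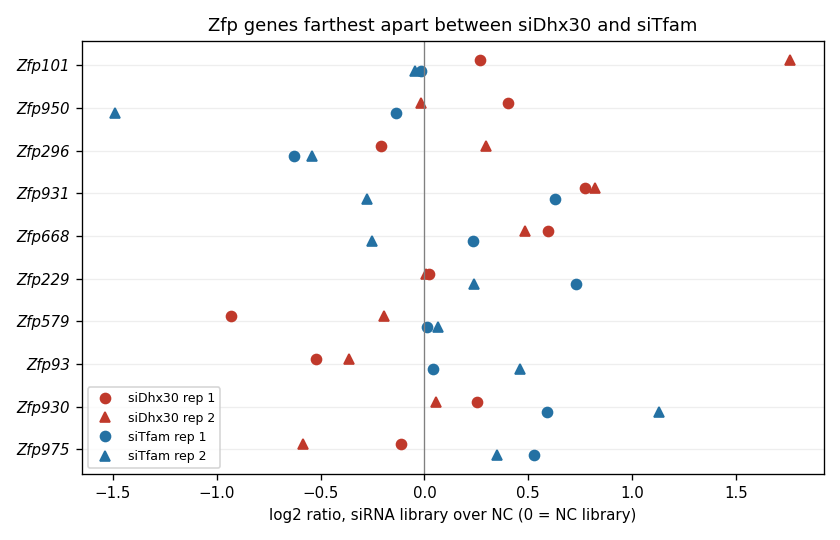
Log2 ratio over NC (horizontal axis, NC at 0) of the Zfp genes farthest apart between siDhx30 (red) and siTfam (blue) libraries, replicate 1 as circles and replicate 2 as triangles. Red lies right of blue in the upper genes and left of it in the lower ones, and in Zfp101 and Zfp950 a single library makes most of the gap.

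Of the members with a described role, Zfp219 and Zfp296 were more than 0.5 below NC in both siTfam libraries, and none of the 35 had an unadjusted limma p under 0.05 in any of the 3 comparisons. Of 7 genes listed for retroelement silencing and imprinting, 5 had values, with mean ratios between -0.23 and 0.22 with siDhx30 and between -0.26 and 0.25 with siTfam. Zfp57, which keeps methylation at imprinting control regions, had 0.19 and -0.19 in siDhx30 libraries and 0.15 and -0.05 in siTfam libraries. Its partner in that role, Zfp445, had 0.24 and 0.20 in siDhx30 libraries and -0.05 and 0.01 in siTfam libraries. Both genes lay within 0.25 of NC in every library. Zfp568, a repressor of a placental Igf2 transcript, was above NC in all 4 libraries, at 0.23 and 0.09 in siDhx30 libraries and 0.18 and 0.32 in siTfam libraries. Zfp809, which silences murine leukaemia virus, had 0.04 and -0.34 in siDhx30 libraries and 0.55 and -0.31 in siTfam libraries, lower in the second library of each. Zfp932, a repressor of endogenous retroviruses, had 0.15 and -0.62 in siDhx30 libraries and -0.15 and -0.37 in siTfam libraries, and shares 22.1% of its 100-base words with other genes, most with its relative Gm15446.

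Of 11 genes listed for pluripotency and early development, 4 had values. Zfp706, known for promoting exit from the naive state, had -0.10 and -0.15 in siDhx30 libraries and -0.32 and 0.03 in siTfam libraries. Zfp217, part of a corepressor complex, had 0.46 and 0.27 in siDhx30 libraries and 0.26 and -0.25 in siTfam libraries. Zfp521, which promotes neural differentiation of embryonic stem cells, had 0.53 and -0.04 in siDhx30 libraries and 0.50 and 0.40 in siTfam libraries. The fourth was Zfp296, described above, and the list had members on both sides of NC in each library.

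Of 12 genes listed for RNA, translation and ubiquitin, 10 had values, with mean ratios between -0.26 and 0.32 with siDhx30 and between -0.32 and 0.09 with siTfam. Zfp598, the ubiquitin ligase of stalled ribosomes, had -0.33 and -0.07 in siDhx30 libraries and -0.41 and -0.23 in siTfam libraries. Zfp622, a maturation factor of the large ribosomal subunit, had -0.36 and -0.15 in siDhx30 libraries and -0.34 and -0.12 in siTfam libraries. Both lay below NC in all 4 libraries, at limma adjusted p-values of 0.998 for each with siDhx30. Zfp451, a SUMO ligase, had 0.54 and 0.10 in siDhx30 libraries and 0.15 and -0.23 in siTfam libraries. Zfp593, whose yeast counterpart acts in ribosome assembly, had -0.30 and -0.20 in siDhx30 libraries and -0.13 and 0.32 in siTfam libraries, and shares 60.3% of its 100-base words with other genes.

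Of 24 genes listed as other DNA-binding regulators, 16 had values, with mean ratios between -0.48 and 0.33 with siDhx30 and between -0.62 and 0.56 with siTfam. Zfp219, a transcription factor studied as a partner of Sox9, had -0.68 and -0.27 in siDhx30 libraries and -0.70 and -0.54 in siTfam libraries. It was the lowest of the list with both siRNAs, at a siTfam mean of -0.62 (SE 0.26, adjusted p of 0.859 by limma), and its exons overlap genes on the other strand. Zfp384 was the highest with siTfam, at 0.01 and 0.34 in siDhx30 libraries and 0.76 and 0.36 in siTfam libraries. Zfp513 lay below NC throughout, at -0.53 and -0.28 in siDhx30 libraries and -0.26 and -0.40 in siTfam libraries.

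Of 20 corepressors listed that KRAB proteins work through, 18 had values, and 0 had an unadjusted limma p under 0.05 in any of the 3 comparisons. Their mean ratios ran from -0.39 to 0.29 with siDhx30 and from -0.33 to 0.24 with siTfam. Chd3, a chromatin remodeller, had the widest spread, at -0.47 and -0.32 in siDhx30 libraries and -0.52 and 0.55 in siTfam libraries. Trim28 had -0.05 and -0.07 in siDhx30 libraries and -0.01 and -0.03 in siTfam libraries. Of the 18, 8 were above NC on average and 10 below with each siRNA. Cbx1, Cbx3, Mphosph8, Hdac2 and Smarcad1 were above NC in each library. Setdb1, Dnmt1, Uhrf1, Pphln1, Hdac1, Daxx and Trim28 were below it in each. Setdb1 had -0.28 and -0.32 in siDhx30 libraries and -0.32 and -0.35 in siTfam libraries. Its mean was -0.30 with siDhx30 (SE 0.18, adjusted p of 0.998 by limma) and -0.33 with siTfam (SE 0.18, adjusted p of 0.915).

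**Figure D5:**
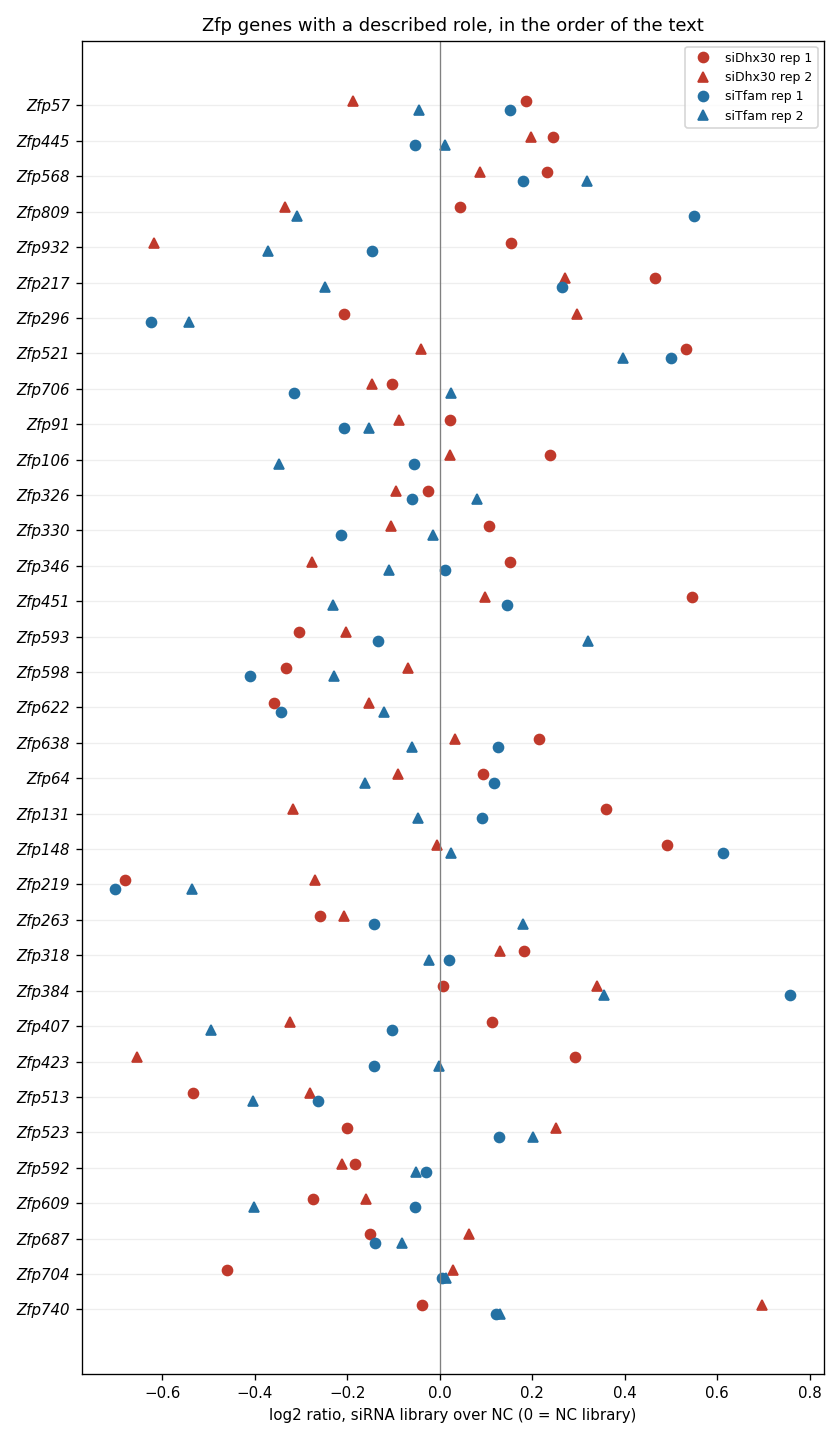
Log2 ratio over NC (horizontal axis, NC at 0) of the 35 Zfp genes with a described role, by list from top to bottom (retroelements and imprinting, pluripotency, RNA and ubiquitin, other regulators), in siDhx30 (red) and siTfam (blue) libraries, replicate 1 as circles and replicate 2 as triangles. All values lie between -0.70 and 0.76, and most genes have libraries on both sides of NC.

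Along the genome, chromosome 7 held 51 of the 189 members and chromosome 17 held 19. The 49 complete members of chromosome 7 had median ratios of -0.07 with siDhx30 and 0.00 with siTfam, beside -0.05 and -0.04 for the other genes there. The 19 of chromosome 17 had 0.16 with siDhx30 and 0.09 with siTfam, beside -0.04 and -0.03 for the 575 other genes there. Chromosome 9, with 14 complete members, stood lowest of these: its members had medians of -0.24 with each siRNA and 4 of 14 above NC, beside -0.01 for the 671 other genes of that chromosome with each siRNA. Chromosome 9 was singled out after its values were seen. The 6 members of chromosome 11 had medians of -0.24 with siDhx30 and -0.22 with siTfam, beside -0.03 and -0.01 for its other genes.

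Neighbouring members were compared within clusters. These were made of annotated Zfp genes with gaps of at most 500 kb, whether in the table or not. Members of a cluster can thus lie farther apart, and 10 clusters had 5 or more complete members. The largest by measured members, chr7:29768552-30169750, had 11 complete members with siDhx30 mean ratios between -1.34 (Zfp27) and 0.38. The clusters below are not all of the 10 and were not taken by size. Over all genes tested, 48.1% were above NC on average with siDhx30 and 47.3% with siTfam. At chr17:21008903-23599487, 5 of 8 complete members were above NC on average with siDhx30 and 6 of 8 with siTfam. At chr7:127233061-127885996 it was 2 of 7 with each siRNA. At chr7:42473386-43618285, all 5 complete members were above NC on average with siTfam, between 0.10 and 0.64, and 4 of 5 with siDhx30. The cluster at chr7:24081924-25227507, with 7 complete members, held Zfp94, Zfp93 and Zfp235. The median of its siDhx30 mean ratios was -0.44, with 3 of 7 above NC on average. By library its medians were -0.03 and -0.37 in siDhx30 libraries and 0.10 and -0.60 in siTfam libraries. At chr9:20345136-20605409, 5 neighbouring KRAB genes had medians of -0.33 and -0.36 in siDhx30 libraries and -0.30 and -0.61 in siTfam libraries, with 2 of 5 above NC on average with siDhx30 and 1 of 5 with siTfam.

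The 8 members with a missing value were kept out of the counts above. All of their 17 values lay above NC, which is fixed by the sign given to the table, since every value of such genes was turned the same way. Zfp438, on chromosome 18, had 2.46 and 2.38 in siDhx30 libraries and 1.57 in the first siTfam library. Zfp667 had 0.57 in the first siDhx30 library and 0.70 and 1.29 in siTfam libraries, and Zfp386 had 0.79 in the first siDhx30 library and 1.00 in the first siTfam library. Zfp738 had a value in the first siDhx30 library alone (2.47), Zfp987 in the second alone (1.72) and Zfp709 in the first siTfam library alone (0.55).

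Counting could blur some members. Of the 189, 74 shared a 100-base stretch with another gene, and 14 shared over 20% of such stretches. Zfp600, with 0.91 and 0.75 in siDhx30 libraries and 1.04 and -0.80 in siTfam libraries, shared 68.5%, most of it with Rex2, and its values are uncertain. An exon of 48 members overlaps an exon of another gene on the other strand and 13 do so on the same strand. How the reads were assigned by strand is not given in the sources used here.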

How the data were processed

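RNA-seq libraries were made from total RNA, DNase-treated, fragmented and converted to cDNA by template switching, per the labels' protocols. Per the submitters' processing notes, reads went through bcl2fastq, HISAT2 and featureCounts on GRCm38, and DESeq2 was used, with settings not given in the sources used here. The authors deposited 1 table of log2 ratios per gene, with 4 value columns, per the file headers; no count or depth was used here, so no counting interval is given. The sign was turned to siRNA over NC.

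The 12088 complete genes were fitted with limma 3.58.1 (R 4.3.3). NC, taken as the denominator, entered as a column of zeros, on the assumption that its spread equals that of the other libraries, which gave 2 residual degrees of freedom. Variances were moderated robustly, without an abundance trend (prior degrees of freedom up to 2.02). P-values were adjusted by Benjamini-Hochberg over all genes, at a threshold of 0.05. The fit was also run on simulated data with planted changes. The outcome is not given here, so an absent call does not show an absent change.

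All 189 members matched GENCODE M21 symbols. Fingers and KRAB boxes were read from translated GENCODE coding sequences in place of the planned RefSeq proteins. The fixed KRAB pattern missed diverged boxes, so a profile of 41 residues was built from its 78 matches (pyhmmer 0.12.3, E at most 0.001) after the values had been seen. Shared sequence was counted in 100-base words of GENCODE transcripts. The last bases of promoters were checked against transcripts and read in the gene's direction in 142 members and in reverse in 0. Tables and plots were made with pandas 2.3.3, numpy 2.4.6 and matplotlib 3.10.9 in Python 3.11.15.

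Named genes were, per comparison, the 5 highest and 5 lowest members with both libraries on 1 side (or groups not overlapping) and the 3 smallest p, with the members of the role lists and up to 6 members with a missing value. Members, lists and tests were chosen with earlier results of these data known. Alternatives left out each library, kept genes with missing values (also with robust=FALSE), used robust=FALSE alone, centred libraries, removed length and GC trends, blocked on replicate number, and left out members that share sequence.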

Additional observations from a re-analysis of the deposited data

How the results depend on the processing

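No member had an adjusted p under 0.05 in any setting, the smallest being 0.282 (Zfp583 with siTfam, genes with missing values kept). The setting with missing values kept also used robust=FALSE, which alone gave a smallest adjusted p of 0.334 by limma with siTfam. The count at an unadjusted p under 0.05 moved more. For siDhx30 against NC it was 12 of 188 members with missing values kept (6.38%, beside 7.83% of all genes), and 5 to 9 when each library was left out. For siTfam against NC it was 4 to 17 when each library was left out (5.44% to 8.10% of all genes). For siDhx30 against siTfam it was 6 with missing values kept (3.23%, beside 3.05% of all genes), 7 with length and GC trends removed (3.87%, beside 3.04%), and 3 to 13 when each library was left out (2.31% to 7.62% of all genes). The cause was not tested. The replicate block, on the 4 siRNA libraries, gave 6 members (4.68% of all genes). Deviations of same-numbered libraries correlated at 0.38 over members and 0.25 over all genes, and the labels give only a number. The member medians stayed between -0.05 and 0.04 for siDhx30 against NC, -0.06 and 0.05 for siTfam against NC, and -0.04 and 0.09 between the siRNAs when each library was left out. Leaving out members that share sequence, robust=FALSE and centring kept every count of members within 1.5 times. The ratio of Zfp583 was 2.11 to 2.33 with siDhx30 and 2.28 to 2.46 with siTfam over all settings. Of the single-gene values, 1107 stayed within the spread of replicates and 25 moved past it. A sign other than in the reported fit was found in 80 of these 1132 values, 63 of them with a library left out, all for genes within 0.33 of 0 in the reported fit. Depth is unknown, so noise from few reads could not be set apart.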

Other observations

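Related zinc finger families were few in the table and are given as values only. The 15 Zbtb genes, whose fingers are joined to a BTB domain, had median ratios of -0.15 and -0.23 in siDhx30 libraries and -0.20 and -0.32 in siTfam libraries. Of these 15, 5 were above NC on average with siDhx30 and 3 with siTfam. The 6 Zscan genes had medians of -0.11 and -0.14 in siDhx30 libraries and -0.27 and -0.13 in siTfam libraries. The 4 Zkscan genes had 0.04 and 0.11 in siDhx30 libraries and 0.09 and 0.05 in siTfam libraries. The 11 genes whose Zfp name ends in letters after the digits had 0.13 and -0.03 in siDhx30 libraries and 0.06 and 0.09 in siTfam libraries. Members with 16 or more fingers, 29 in all, had medians of 0.19 and -0.02 in siDhx30 libraries and 0.11 and -0.09 in siTfam libraries. Members with 1 to 5 fingers, 44 in all, had -0.04 and -0.12 in siDhx30 libraries and -0.03 and -0.07 in siTfam libraries. Promoters of the 152 matched members held a median of 15 CG dinucleotides in 300 bases, beside 21 over all promoters.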
